A study of Mus musculus with 24 samples.

Results

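Transcripts of ribosome biogenesis and of RNA polymerase I were followed in mouse CD4+ T cells, as 54 named genes taken from the array by every probe that carried the symbol of a member or, for older symbols, its Entrez gene identifier or RefSeq accession. Of the 54 genes, 48 had a probe (77 probes in all), and 43 genes, with 70 probes, were detected on at least 1 of 24 arrays and tested among 10419 genes. No probe was found for Polr1b, Utp14a, Utp18, Utp20, Wdr43 and Noc2l, and the probes of Nolc1, Dkc1, Bysl, Wdr12 and Nop16 were detected on no array.

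A ribosome begins in the nucleolus, where RNA polymerase I transcribes the ribosomal RNA precursor. Small nucleolar ribonucleoproteins (snoRNPs) then guide its chemical modification, box C/D particles for 2′-O-methylation and box H/ACA particles for pseudouridylation, while the small subunit processome and the 60S assembly factors cut, fold and package it into the small and large subunits. Naive T cells are small and make little protein, and activation through the T cell receptor is known to enlarge the cell and its nucleolus before division.

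The study asked what BAF180, the Pbrm1 product and a subunit of the PBAF chromatin remodelling complex, does in T helper cells. Splenic and lymph node CD4+CD62L+ cells, given as 95% pure, came from WT mice and from BAF180-deficient (cKO) mice, all labelled Balb/c and 4 to 6 weeks old, and each of 8 groups (4 cell states and 2 genotypes) had 3 arrays named A, B and C. Resting Naive cells were used as purified, and stimulated Naive cells were held for 24 hours on plates coated with anti-CD3 (1 µg/ml) and anti-CD28 (2 µg/ml). Resting Th2 cells were made from Naive cells on the same antibodies with IL-4 (10 ng/ml), anti-IFN-gamma (10 µg/ml) and IL-2 (100 U/ml), and stimulated Th2 cells were such cells given PMA (50 ng/ml) and ionomycin (500 ng/ml) for 1.5 hours. The deficient mice carried a floxed BAF180 exon deleted by CD4-Cre, which acts in the thymus in all cells that pass through CD4 expression, and the study's methods describe the floxed line as kept on a mixed genetic background before that cross, in contrast to the strain label. The study describes mice of both genotypes taken as pairs, and the labels give the letters without tying them to animals. In RNA from whole cultures, a change in RNA per cell cannot be told apart from a change in the share of cells that make it.

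The arrays detected 8047 to 10689 probes each, and arrays of one group correlated at 0.950 to 0.989 over all pairs. Pbrm1 itself, by its brightest probe, was lower on all 3 BAF180-deficient arrays than on all 3 WT arrays in every state. The difference was -1.83 (log2) at rest and -1.39 after stimulation of Th2 cells. It was -1.60 in stimulated and -1.0 in resting Naive cells, the last with an adjusted p of 0.122 by limma. In resting Th2 cells its dimmer probes were also lower on all deficient arrays, by only -0.73 and -0.47, and neither was called. Of 5 T cell markers, all were detected on every array of every group. The Th2 cytokines Il5 and Il13 were detected on no resting Naive WT array and on all 3 stimulated Th2 WT arrays. All 5 Th2 markers were also detected on all 3 stimulated Naive WT arrays, so detection alone does not separate these from Th2 cells. Their summed intensity was 1090.2 to 2479.1 in stimulated Naive and 19263.8 to 34254.1 in stimulated Th2 WT cells. On the resting Th2 WT arrays 3 of the 5 were detected on all 3. The activation marker Cd69 was brighter in resting Naive WT cells (11.39 to 11.98, log2) than in the stimulated ones (9.92 to 10.52). The summed intensity of the 4 measured activation markers, Cd69 included, was 1993.3 to 2785.3 in resting and 2807.1 to 4134.8 in stimulated Naive WT cells. That of 5 naive cell markers was 1848.4 to 3479.1 at rest and 484.8 to 916.5 after stimulation. Resting Naive arrays also carried the signal of other cells, as given below beside the comparison it touches.

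Promoter sequence is shown for the measured members that held an E-box upstream of their start, since Myc binds the E-box CACGTG (a palindrome, read on both strands at once) and Myc is a known driver of ribosome production. In 300 bases from 250 before to 50 after the RefSeq transcription start, 10 of 48 members with an entry held the E-box (20.8%). Of the measured members, 7 of 37 with an entry held it (18.9%). The share was 9.66% of 13893 genes with a probe and 8.09% of all 27025 genes. In the 250 bases before the start alone the shares were 6.25% of members and 5.41% of measured members. They were 8.31% of genes with a probe and 6.86% of all genes, and the other matches of members lay after the start. Of the members measured, Nop2 and Imp4 held it upstream, with its first base at -60 and -121 counted from the start, and Pno1, Mybbp1a, Ltv1, Tsr1 and Pes1 held it at 38, 41, 29, 25 and 3, after it. Nop2, the 60S methyltransferase with the largest rise on Naive stimulation, and Imp4, a small subunit processome protein with a modest one, are printed from GRCm38.p6, plus strand, chr6:125131633-125131882 and chr1:34439579-34439828, with the E-box in capitals.
Nop2: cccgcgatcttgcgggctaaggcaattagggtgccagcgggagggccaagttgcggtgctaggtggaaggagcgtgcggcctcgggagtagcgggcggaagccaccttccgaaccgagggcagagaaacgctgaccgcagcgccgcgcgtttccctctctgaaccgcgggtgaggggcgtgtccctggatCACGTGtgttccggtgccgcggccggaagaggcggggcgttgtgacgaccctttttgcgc
Imp4: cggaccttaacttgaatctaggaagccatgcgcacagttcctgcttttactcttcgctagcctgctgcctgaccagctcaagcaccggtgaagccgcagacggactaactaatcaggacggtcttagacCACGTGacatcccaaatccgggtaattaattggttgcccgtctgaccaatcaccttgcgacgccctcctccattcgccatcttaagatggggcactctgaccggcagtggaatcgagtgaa
These letters are a description of the window, not a measured binding site.

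Stimulation of WT Naive cells raised nearly the whole module. Of 43 members, 40 were higher and 0 lower in stimulated than in resting Naive cells at an adjusted p below 0.05 (limma, Benjamini-Hochberg over all kept probes), where 22.9% of all genes were higher and 22.5% lower. At least 2-fold rises were counted for 34 members (11.4% of all genes), and the median difference was 1.51 (log2), against -0.04 over all genes. For 39 members all 3 stimulated arrays lay above all 3 resting arrays, which held for 24.7% of all genes. In BAF180-deficient cells 40 members were higher too (21.9% of all genes), with a median of 1.40.

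**Figure D1:**
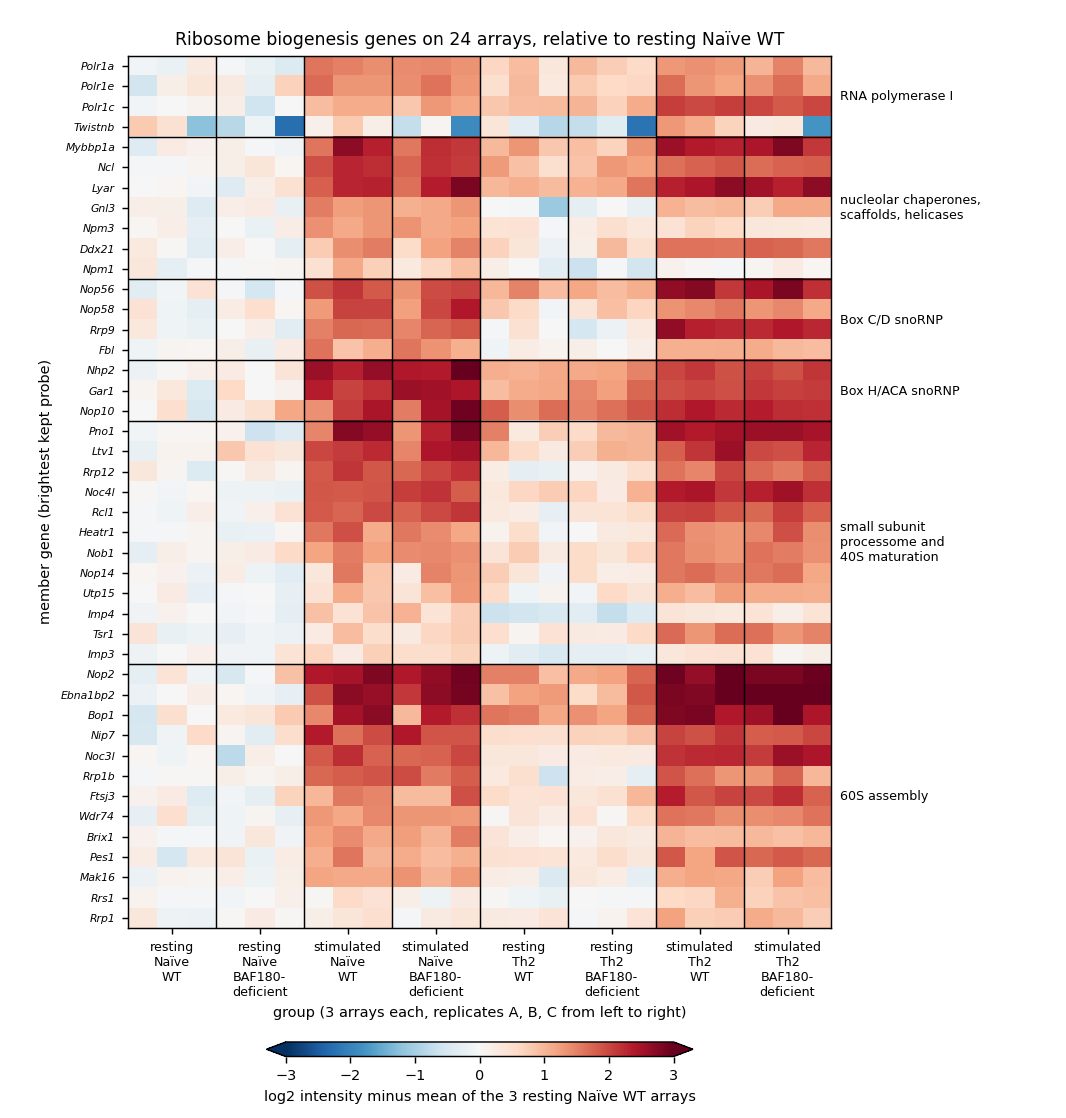
Each row is a member gene, grouped by role, and each column an array, grouped by cell state and genotype, and colour is the log2 difference of the array from the mean of that probe over the resting Naive WT arrays, cut off at -3 and 3. Rows are near 0 in resting Naive cells and turn warm in stimulated Naive and stimulated Th2 cells of both genotypes, with resting Th2 cells between them.

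Box H/ACA proteins, which hold the pseudouridylation guides, had the largest group median. All 3 measured members rose in WT Naive cells, with a median difference of 2.20 (log2). Nhp2, an H/ACA core protein, gave 8.21, 8.42 and 8.53 (log2 intensity) on resting and 10.97, 10.69 and 11.02 on stimulated WT arrays. No resting array came near a stimulated one, and the rise was 2.51 (SE 0.16, 5.68-fold, adjusted p = 1.67e-10). Gar1, also a core protein, gave 9.02, 9.26 and 8.54 at rest and 11.31, 10.98 and 11.14 after stimulation. These did not overlap either, and the rise was 2.20 (SE 0.17, 4.59-fold, adjusted p = 2.09e-09). Nop10, the smallest of the core proteins, went from 8.08, 8.58 and 7.61 to 9.45, 10.20 and 10.54, again without overlap, a rise of 1.97 (SE 0.31, 3.92-fold, adjusted p = 2.73e-05). A dimmer probe of Nhp2, detected on no resting Naive WT array, showed 0.61 (adjusted p = 0.00353), and a dimmer probe of Nop10 showed 0.33 (adjusted p = 0.0619).

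Box C/D proteins, which carry the 2′-O-methylation guides, all rose in WT Naive cells, 4 of 4 with a median of 1.71 (log2). Nop56, a core scaffold protein of the particle, gave 6.54, 6.81 and 7.31 at rest and 8.80, 9.04 and 8.73 after stimulation. The ranges stood well apart, and the rise was 1.97 (SE 0.23, 3.92-fold, adjusted p = 7.07e-07). Its partner Nop58 gave 9.34, 8.79 and 8.62 at rest and 10.20, 10.94 and 10.94 when stimulated, with no overlap, a rise of 1.78 (SE 0.27, adjusted p = 2.14e-05). Fbl (fibrillarin), the methyltransferase of the particle, had the smallest difference of the group. It gave 10.25, 10.46 and 10.44 at rest and 12.01, 11.23 and 11.48 after stimulation, without overlap, a rise of 1.19 (SE 0.17, 2.28-fold, adjusted p = 1.09e-05).

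Nucleolar chaperones, scaffolds and helicases rose in 7 of 7 cases in WT Naive cells, with a median of 1.37 (log2). Mybbp1a, a nucleolar protein that binds Myb and acts on ribosomal RNA, gave 7.35, 7.99 and 7.88 at rest and 9.36, 10.43 and 10.08 when stimulated. All stimulated arrays were the brighter, and the rise was 2.21 (SE 0.25, 4.63-fold, adjusted p = 5.03e-07). Ncl (nucleolin), an abundant nucleolar RNA-binding protein, gave 6.89, 6.91 and 7.04 at rest and 8.87, 9.24 and 9.15 when stimulated, without overlap, a rise of 2.14 (SE 0.17, 4.42-fold, adjusted p = 3.35e-09). Npm1 (nucleophosmin), a histone and ribosome chaperone already bright at rest, had the smallest rise of the group, from 12.55, 11.93 and 12.15 to 12.66, 13.35 and 12.93. The groups were adjacent but did not overlap, and the rise was 0.77 (SE 0.20, 1.71-fold, adjusted p = 0.00319), which became -0.13 (adjusted p = 0.831) with Z-score normalization.

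Of the small subunit processome and 40S maturation factors, 12 of 12 measured rose in WT Naive cells, with a median of 1.43 (log2). Pno1, a factor that accompanies the 40S precursor to the last cleavage of its RNA, gave 6.36, 6.47 and 6.50 at rest and 7.90, 9.20 and 9.09 when stimulated. The stimulated arrays spread widely, replicate A being the lowest, yet all lay above rest, with a rise of 2.28 (SE 0.35, 4.87-fold, adjusted p = 1.67e-05). Ltv1, needed for export and maturation of the 40S subunit, gave 4.51, 4.84 and 4.85 at rest and 6.74, 6.84 and 6.98 when stimulated. The arrays stood apart, a rise of 2.12 (SE 0.24, 4.34-fold, adjusted p = 5.29e-07). Imp3, which pairs the U3 snoRNA with its target, rose least, from 10.28, 10.43 and 10.60 to 11.09, 10.67 and 11.15 without overlap, a difference of 0.54 (SE 0.15, 1.45-fold, adjusted p = 0.00623) that did not pass with Z-score normalization (0.28, adjusted p = 0.171). Utp15, a processome protein, was not detected on any resting Naive array and was at least 1.41-fold higher in stimulated WT cells (adjusted p = 0.00741), the bound being set against the dimmest detected signal.

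Factors of 60S assembly rose in 11 of 13 cases, with a median of 1.34 (log2). Nop2 gave 4.54, 5.25 and 4.73 at rest and 7.24, 7.30 and 7.64 when stimulated. Its arrays were separated by more than the whole spread of either group, and the rise of 2.56 (SE 0.27, 5.88-fold, adjusted p = 2.06e-07) was the largest among the members. Ebna1bp2, a 60S precursor protein, gave 6.20, 6.36 and 6.59 at rest and 8.28, 9.09 and 8.99 when stimulated, without overlap, a rise of 2.41 (SE 0.26, 5.31-fold, adjusted p = 2.49e-07), while its dimmer probes showed 0.69 (adjusted p = 0.000488) and 0.31 (adjusted p = 0.072). Rrp1, a nucleolar 60S factor, overlapped between the groups, with 5.09, 4.58 and 4.56 at rest and 4.93, 5.10 and 5.24 when stimulated, and its difference of 0.35 (SE 0.17, adjusted p = 0.109) did not pass the test. Without resting Naive WT replicate A it did, at 0.52 (adjusted p = 0.0226). The other member here that did not pass was Rrs1, a factor that brings 5S RNA into the 60S precursor, detected on no resting Naive array (0.35, adjusted p = 0.0706).

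RNA polymerase I was measured through 4 of its 5 listed subunits, and 3 of 4 rose in WT Naive cells, with a median of 1.25 (log2). Polr1a, the largest subunit and part of the catalytic centre, gave 7.66, 7.53 and 8.02 at rest and 9.35, 9.24 and 9.13 when stimulated. The groups were clear of each other, and the rise was 1.51 (SE 0.17, 2.84-fold, adjusted p = 3.07e-07), with 0.98 (adjusted p = 0.000363) and 0.49 (adjusted p = 0.0726) on the dimmer probes. Polr1e, the subunit that helps the enzyme initiate and elongate, gave 5.70, 6.44 and 6.63 at rest and 7.95, 7.59 and 7.58 when stimulated, without overlap, a rise of 1.45 (SE 0.25, adjusted p = 6.36e-05). Polr1c, shared with RNA polymerase III, gave 6.42, 6.49 and 6.62 at rest and 7.44, 7.62 and 7.64 when stimulated, without overlap, a rise of 1.05 (SE 0.17, adjusted p = 3.01e-05). Twistnb (the Polr1f subunit of the stalk) gave 7.36, 7.02 and 5.33 at rest and 6.72, 7.34 and 6.75 when stimulated. These arrays overlapped, resting replicate C being far below the others, and the difference of 0.37 (SE 0.65, adjusted p = 0.69) did not pass and became -0.25 (adjusted p = 0.809) without that array.

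**Figure D2:**
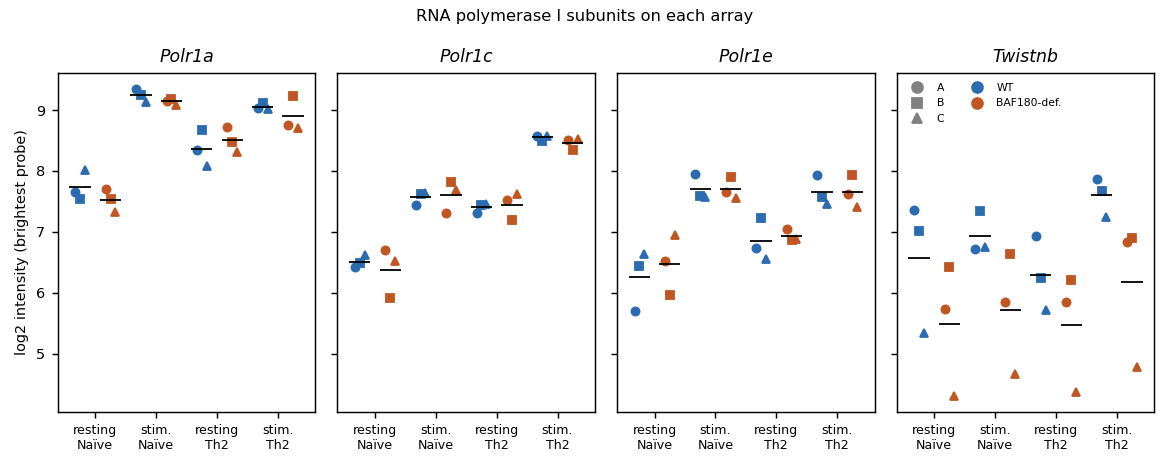
Log2 intensity of the RNA polymerase I subunits Polr1a, Polr1c, Polr1e and Twistnb, 1 panel each, on every array of the 4 cell states, where blue is WT, orange BAF180-deficient, symbols mark replicates A, B and C and lines group means. Levels are not compared between panels, which hold different probes. Twistnb spreads most, with BAF180-deficient replicate C between 4.30 and 4.79 in all 4 states.

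Markers of other cells moved with the Naive comparison. The summed intensity of 5 measured myeloid markers was 596.5 to 3579.1 on the resting Naive WT arrays and 211.2 to 285 on the stimulated ones, where Lyz2, Cd14 and S100a9 were detected on no array. The sum of 6 B cell markers was 391.4 to 804.8 at rest and 328.3 to 433.9 after stimulation, and that of 2 measured NK cell markers 119.7 to 267.4 and 83.7 to 96.5. The 1 measured CD8 marker, Cd8b1, was 141.7 to 363.3 at rest and 170.9 to 383.2 after stimulation. The part of these cells in the result was not tested. Resting and stimulated Th2 WT arrays both lacked Lyz2, Cd14, S100a8 and S100a9, with myeloid sums of 198.1 to 209.8 and 204.8 to 208.2.

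Stimulation of WT Th2 cells, with another agent and for 1.5 hours, raised 39 of 43 members and lowered 0, where 12.6% of all genes were higher. Of these, 27 rose at least 2-fold (5.59% of all genes), and the median was 1.25 (log2), against -0.01 over all genes. In BAF180-deficient Th2 cells 38 members were higher (11.8% of all genes), with a median of 1.13. By role, 3 of 4 RNA polymerase I subunits, 5 of 7 nucleolar proteins, 4 of 4 box C/D, 2 of 3 box H/ACA, 12 of 12 small subunit and 13 of 13 60S factors rose in WT cells.

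Rrp9, the U3 snoRNP protein, had the largest Th2 rise. It gave 6.30, 6.80 and 6.35 on resting and 9.01, 8.68 and 8.62 on stimulated WT arrays, far apart, a rise of 2.29 (SE 0.20, 4.88-fold, adjusted p = 2.64e-08). Noc3l, a factor of 60S precursor transport, gave 5.83, 5.81 and 5.73 at rest and 7.64, 7.71 and 7.74 when stimulated, with tight replicates and no overlap, a rise of 1.91 (SE 0.18, 3.75-fold, adjusted p = 1.22e-07). Rcl1, a processome protein related to RNA cyclases, gave 8.36, 8.28 and 7.82 at rest and 10.08, 10.11 and 9.92 when stimulated, without overlap, a rise of 1.89 (SE 0.16, 3.69-fold, adjusted p = 1.54e-08). At the other end, Npm1 gave 12.39, 12.20 and 11.89 at rest and 12.34, 12.24 and 12.15 when stimulated, an overlapping 0.08 (SE 0.20, adjusted p = 0.856). Npm3, a nucleoplasmin relative of Npm1, went from 11.77, 11.79 and 11.31 to 11.80, 12.02 and 11.96. All stimulated arrays were slightly above rest, but the difference of 0.31 (SE 0.15, adjusted p = 0.141) did not pass. Its other probe rose by 0.72 (adjusted p = 0.00886), and the mean of both probes passed (0.51, adjusted p = 0.0116). Rrp1 rose here, from 5.02, 5.0 and 5.16 to 5.96, 5.46 and 5.50 without overlap, by 0.58 (SE 0.17, adjusted p = 0.0141), and no longer passed without stimulated Th2 WT replicate A (0.42, adjusted p = 0.104).

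Among the RNA polymerase I subunits in WT Th2 cells, Polr1c went from 7.31, 7.44 and 7.46 to 8.58, 8.50 and 8.58, a rise of 1.15 (SE 0.17, adjusted p = 2.26e-05). Polr1e went from 6.74, 7.23 and 6.56 to 7.93, 7.57 and 7.45, by 0.81 (SE 0.25, adjusted p = 0.0167), and Polr1a from 8.35, 8.67 and 8.09 to 9.03, 9.12 and 9.01, by 0.69 (SE 0.17, adjusted p = 0.00331). All of these were without overlap, and Polr1e no longer passed without resting Th2 WT replicate A or C or stimulated Th2 WT replicate A (adjusted p 0.0567 to 0.0887). Twistnb went from 6.92, 6.24 and 5.71 to 7.88, 7.68 and 7.24, every stimulated array above every resting one, by 1.31 (SE 0.65). It did not pass with an adjusted p of 0.155. It passed with the replicate letter as a block (adjusted p = 0.00626) and with the letter within genotype as a block (adjusted p = 0.00127). Rrs1, detected on no resting Th2 array, was at least 1.54-fold higher in stimulated WT Th2 cells (adjusted p = 0.00017).

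**Figure D3:**
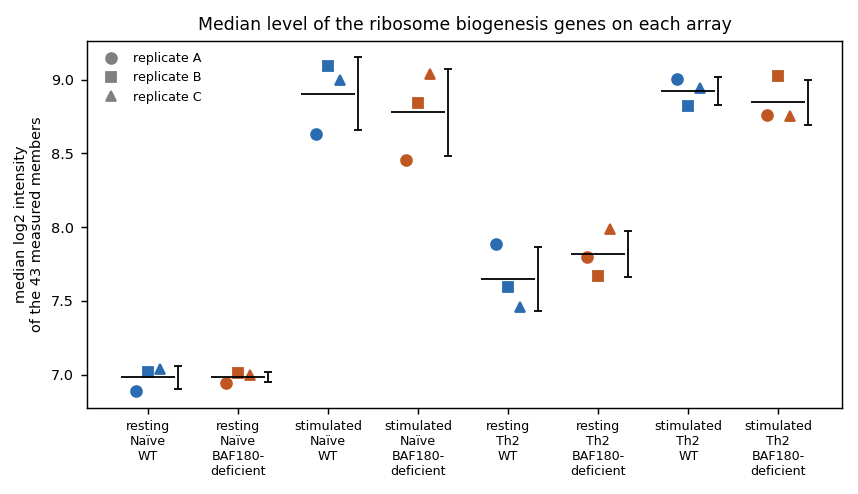
For each array, the median log2 intensity of the 43 members, by cell state. Symbols are replicates, blue WT, orange BAF180-deficient, lines means and bars SD (n = 3). WT arrays lay at 6.89 to 7.04 in resting Naive, 8.63 to 9.09 in stimulated Naive, 7.46 to 7.89 in resting Th2 and 8.82 to 9.01 in stimulated Th2 cells. BAF180-deficient arrays lay at 6.95 to 7.01, 8.46 to 9.04, 7.67 to 7.98 and 8.75 to 9.02. Not drawn is the median log2 difference of the members from the resting Naive WT mean. In the same order its WT means were 0.00, 1.51, 0.40 and 1.66, and its BAF180-deficient means 0.02, 1.46, 0.46 and 1.68.

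Across the WT stimulations, which share no array, 37 of 43 members were higher in both, and 35 were higher in all 4 stimulation comparisons of the 2 genotypes. The matching shares of all genes were not counted. They can be at most 12.6% and 11.8%, the shares higher in WT and in BAF180-deficient Th2 stimulation. Npm1, Npm3 and Nop10 passed in WT Naive but not in WT Th2 cells, Rrp1 and Rrs1 passed in WT Th2 but not in WT Naive cells, and Twistnb passed in neither, each by its brightest probe and without a replicate block. Npm3 passed in both with the mean of its probes. Counting only the 32 members detected on all 24 arrays, chosen after the data were seen, 32 were higher in WT Naive (30.3% of 4714 genes so detected) and 29 in WT Th2 stimulation (16.8%).

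The size of the response was then compared between the cell types, as the WT Th2 difference minus the WT Naive difference, a contrast added after the data were seen. The stimuli and their durations differed, so cell type and stimulus cannot be told apart. Of 43 members, 6 rose less in Th2 than in Naive cells and 0 more, where 14.3% of all genes were lower and 11.9% higher, and the median was -0.24 (log2), against 0.02 over all genes (-0.55 against 0.12 with median scaling). The share of members that rose less was like that of all genes, so this count is not particular to the module. The 6 included all 3 measured box H/ACA proteins: Nhp2 differed by -1.59 (SE 0.23, adjusted p = 2.68e-05), Gar1 by -1.32 (SE 0.24, adjusted p = 0.000321) and Nop10 by -1.32 (SE 0.44, adjusted p = 0.0313). The others were Ncl, -1.25 (SE 0.24, adjusted p = 0.000587), Npm3, -0.97 (SE 0.21, adjusted p = 0.00153), and Polr1a, -0.82 (SE 0.23, adjusted p = 0.013). By their brightest probes, resting Th2 WT arrays gave 9.49, 9.44 and 9.51 for Nhp2 and 9.88, 10.05 and 10.11 for Gar1, all above resting Naive. Stimulated Th2 WT arrays gave 10.38, 10.51 and 10.31 for Nhp2 and 10.87, 10.95 and 10.86 for Gar1, all below stimulated Naive cells. Whether the resting level bears on the size of the rise was not tested, and the resting Naive arrays enter both comparisons.

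Other probes of these genes did not all share the difference. Those of Polr1a gave -0.03 and 0.46, that of Nop10 0.04 and that of Nhp2 -0.07, none of which passed, and with the mean of all probes Polr1a (-0.13, adjusted p = 0.652) and Nop10 (-0.64, adjusted p = 0.0884) no longer passed. Nop10 also lost its call without any 1 of 8 WT arrays, which were replicate A or C of resting Naive, resting Th2 and stimulated Th2 cells and replicate B or C of stimulated Naive cells (adjusted p 0.0545 to 0.0981). The dimmer probes of Nop10 and Nhp2 were at 4.36 and 4.58 (log2) in resting Naive WT cells and detected on none of those arrays. The other probe of Ncl gave -1.10 (adjusted p = 0.0635) and that of Npm3 -0.49 (adjusted p = 0.228).

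**Figure D4:**
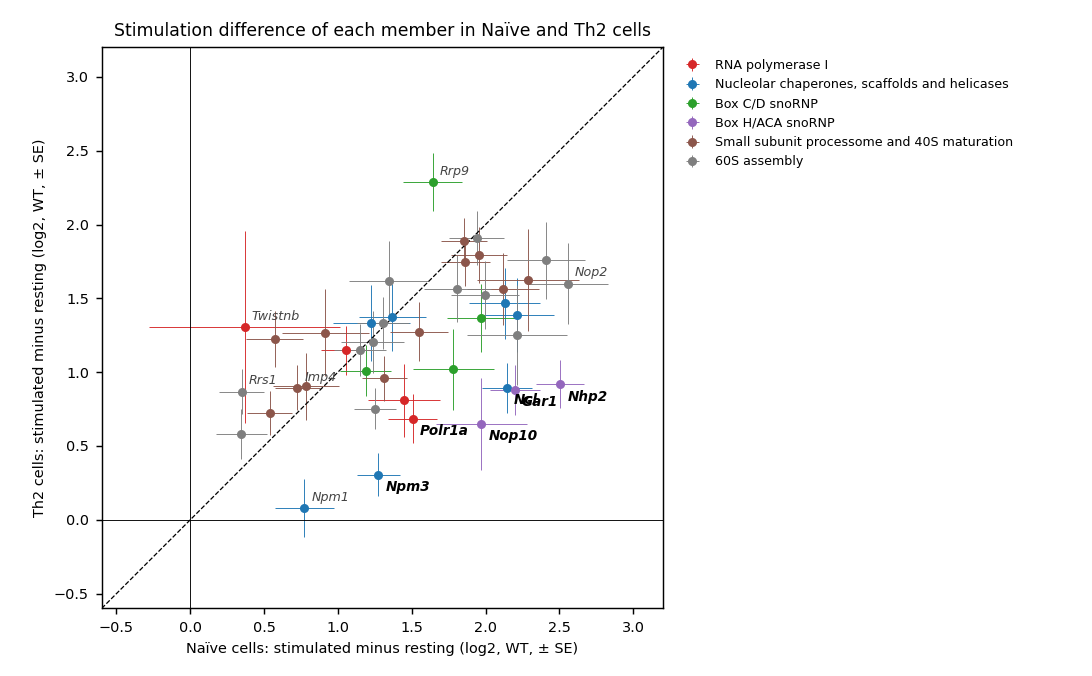
Each point is a member, with its WT log2 difference on Naive stimulation on the x axis and on Th2 stimulation on the y axis, bars giving the SE. The diagonal marks equal rises, and bold points are the 6 members whose rises differed. Nhp2, Gar1, Ncl, Nop10, Npm3 and Polr1a lie below the diagonal, and Rrp9 has the highest Th2 value, 2.29.

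Resting Th2 cells stood between resting and stimulated Naive cells. Against resting Naive WT cells, which are also the control of the Naive stimulation, 14 members were higher and 1 lower (17.5% and 18.1% of all genes), 9 of them at least 2-fold higher (7.23%), and the median was 0.34 (log2), or 0.61 with median scaling. In BAF180-deficient cells 16 were higher and 0 lower (18% and 18% of all genes), with a median of 0.41, or 0.81 with median scaling. Against stimulated Naive WT cells 0 members were higher and 35 lower (11.5% and 12.2% of all genes), with a median of -1.11. All 3 measured box H/ACA proteins were among the members higher than in resting Naive WT cells: Nop10 by 1.63 (SE 0.31, adjusted p = 0.000362), Nhp2 by 1.09 (SE 0.16, adjusted p = 2.29e-05) and Gar1 by 1.07 (SE 0.17, adjusted p = 4.9e-05). The dimmer probes of Nop10 (0.17, adjusted p = 0.385) and Nhp2 (-0.17, adjusted p = 0.429) did not pass. Bop1, of the PeBoW complex of 60S assembly, was higher by 1.43 and Nop2 by 1.31. Of the RNA polymerase I subunits, Polr1c (0.89, adjusted p = 0.000312) and Polr1a (0.63, adjusted p = 0.00554) were higher, while Polr1e at 0.58 (adjusted p = 0.0716, or 0.0286 without resting Naive WT replicate C and 0.0482 without resting Naive BAF180-deficient replicate B) and Twistnb at -0.28 (adjusted p = 0.786) did not pass. Polr1e did with Z-score normalization (0.66, adjusted p = 0.0196) and median scaling (0.76, adjusted p = 0.0232). Both dimmer probes of Polr1a were at -0.04, and by the mean of its probes Polr1a no longer passed (0.18, adjusted p = 0.288).

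Imp4 was the member that was lower, and its probes disagreed. The brighter probe gave 9.30, 9.51 and 9.37 in resting Naive and 8.74, 8.83 and 8.92 in resting Th2 WT cells, without overlap, a fall of -0.56 (SE 0.15, adjusted p = 0.00697). The dimmer probe gave 6.07, 6.24 and 5.83 in resting Naive and 6.38, 6.43 and 6.71 in resting Th2 WT cells, all Th2 arrays higher, a rise of 0.46 (adjusted p = 0.0351). The mean of both probes was -0.05 (adjusted p = 0.8), so no direction can be given for the gene.

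Few members were called different between BAF180-deficient and WT cells, and none by the study's cutoffs within a state. The cutoffs of the study's 4 criteria were a Z-ratio beyond 1.5, a false discovery rate below 0.3, p below 0.05 and a positive mean signal. They were applied here to quantile-normalized log2 values, with p and false discovery rate from limma. The study applied them to Z-scores with other software, so these calls are not the study's own. By these 4 criteria 0 members were called in each of the 4 states. The share of all genes called was 0.106% in resting and 0.0864% in stimulated Th2 cells, and 0.585% in resting and 0.0768% in stimulated Naive cells. The study reported far more genes. Il10, which it named as the gene most enhanced in Th2 cells without BAF180, was not called here in resting Th2 cells. Its difference was 1.67 (SE 0.54, adjusted p = 0.906 by limma), with every deficient array above every WT array. A member without a call may therefore still differ. At an unadjusted p below 0.05 (limma), 2 members passed in resting (3.67% of all genes) and 1 in stimulated Th2 cells (2.83%), and 2 in resting (6.65%) and 0 in stimulated Naive cells (2.34%). The medians over members were 0.05, -0.01, 0.06 and 0.01 (log2) in that order, and 0.28, -0.15, 0.12 and 0.10 with median scaling. The study reported ribosome biogenesis gene sets as increased in stimulated BAF180-deficient Th2 cells, by a gene set test that was not run here. The median of the members in that state was -0.01, or -0.15 with median scaling. The members are a list other than the study's GO gene sets, so these medians do not test its statement.

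The members that passed before adjustment were Gar1 (0.40, SE 0.17) and Rcl1 (0.35, SE 0.16) in resting Th2, Twistnb (-1.43, SE 0.65) in stimulated Th2, and Nob1, the endonuclease of the last 18S cleavage (0.34, SE 0.15), and Ltv1 (0.53, SE 0.24) in resting Naive cells. Their adjusted p-values by limma were 0.745 to 1. Next to these in each state stood Npm1 (-0.37, SE 0.20) and Rrp9 (-0.27, SE 0.20) in resting Th2, Npm3 (-0.26, SE 0.15), Noc3l (0.16, SE 0.18) and Gar1 (0.14, SE 0.17) in stimulated Th2, Polr1a (-0.21, SE 0.17) and Twistnb (-1.08, SE 0.65) in resting Naive, and Gar1 (0.31, SE 0.17), Nop10 (0.35, SE 0.31), Rrs1 (-0.25, SE 0.15) and Twistnb (-1.22, SE 0.65) in stimulated Naive cells. None of these passed.

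**Figure D5:**
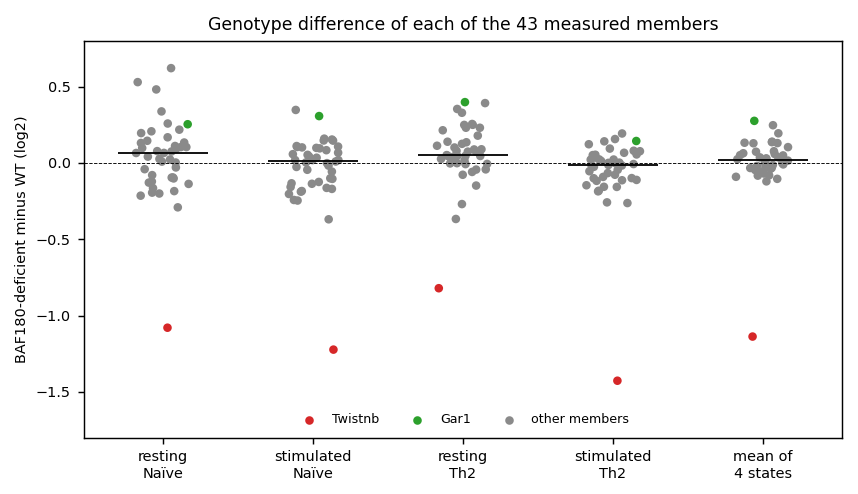
For each cell state and for the mean of the 4 states, points are the 43 members' log2 differences of BAF180-deficient from WT cells, horizontal lines the medians, Twistnb in red and Gar1 in green. Medians lie between -0.01 and 0.06 in the 4 states, Twistnb is the lowest member in every state, and its mean is -1.14.

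With the 4 states averaged, 1 member was called higher and 1 lower by the 4 criteria. Of all genes, 1.32% were called higher and 1.15% lower. In this fit without a replicate block 0 members passed an adjusted p below 0.05 (0.374% of all genes in either direction). The member called lower was Twistnb, named by the study among genes that BAF180 appeared to activate in Th2 cells. Its resting Naive WT values of 7.36, 7.02 and 5.33 compared with 5.74, 6.43 and 4.30 in BAF180-deficient cells, and its stimulated Naive WT values of 6.72, 7.34 and 6.75 with 5.85, 6.64 and 4.66. In resting Th2 cells WT gave 6.92, 6.24 and 5.71 and BAF180-deficient 5.85, 6.20 and 4.37, and in stimulated Th2 cells 7.88, 7.68 and 7.24 stood against 6.84, 6.90 and 4.79. The genotypes overlapped in both resting states and did not in both stimulated ones, and BAF180-deficient replicate C was the lowest array in all 4 states.

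The mean difference of Twistnb over the 4 states was -1.14 (SE 0.32, adjusted p = 0.178), and its other probe gave -0.79 (adjusted p = 0.224). Without the 4 BAF180-deficient C arrays, left out after the data were seen, it was -0.55 (adjusted p = 0.562) and was no longer called. Without the C arrays of both genotypes, also left out after the data were seen, it was -0.84 (SE 0.16, adjusted p = 0.0398) and called. In all 12 same-letter pairs the deficient array was the lower, by -0.035 to -1.62 for A and B and -1.03 to -2.46 for C. Twistnb was not called without stimulated Naive WT replicate B (-1.09, adjusted p = 0.322) or with no filter on dim probes (-1.14, adjusted p = 0.375). With the replicate letter as a block the adjusted p was 0.00259, and with the letter within each state as a block 0.00674. Under the latter Twistnb was also called in resting Naive cells (-1.08, adjusted p = 0.265). It was called there too without the C arrays of both genotypes (-1.10, adjusted p = 0.251). Arrays of the same letter in the 4 states may come from the same mice, since the study describes pairs of mice. The 12 pairs, and the states averaged for Twistnb and Gar1, may then not be independent. No fit of the genotype difference allowed for deviations that an animal shares over the states.

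The member called higher was Gar1, at 0.28 (SE 0.08, adjusted p = 0.226) over the 4 states. In resting Th2 cells WT gave 9.88, 10.05 and 10.11 and BAF180-deficient 10.39, 10.18 and 10.66, and in stimulated Th2 cells 10.87, 10.95 and 10.86 stood against 11.07, 10.99 and 11.05. In stimulated Naive cells WT gave 11.31, 10.98 and 11.14 and BAF180-deficient 11.52, 11.45 and 11.36. The deficient arrays were all above the WT arrays in these 3 states, by small amounts, and overlapped with them in resting Naive cells (9.54, 8.96 and 9.08 against 9.02, 9.26 and 8.54). Leaving out any 1 of 12 arrays ended the call (adjusted p 0.308 to 0.409), namely replicate A or B of WT and A or C of BAF180-deficient Th2 cells in either state, B of stimulated WT Naive, A of resting BAF180-deficient Naive, and A or B of stimulated BAF180-deficient Naive cells. Gar1 was also not called with Z-score normalization (0.27, adjusted p = 0.63) or with no filter on dim probes (0.28, adjusted p = 0.337). With median scaling its stimulated Th2 difference was near 0 and reversed in sign (-0.00065).

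Whether BAF180 altered the response itself was tested by interaction terms. At an adjusted p below 0.05 0 members passed for Naive stimulation, Th2 stimulation or the step from resting Naive to resting Th2 cells, as for 0% of all genes, and at an unadjusted p below 0.05 2.12%, 1.87% and 2.76% of all genes passed. The members with the lowest unadjusted p were Bop1 for Naive stimulation (-0.85), Rcl1 for Th2 stimulation (-0.47) and Polr1a for the resting step (0.35), and of these only Rcl1 was below 0.05 before adjustment. The median of the members for the Th2 interaction was -0.11, and -0.47 with median scaling. The median SE of a genotype difference over all genes was 0.19 (log2), which limits the size that 3 arrays a group can resolve.

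Other genes of the pathway moved less uniformly. Of 7 measured genes of the RNA polymerase I machinery outside the list, 3 rose on WT Naive stimulation: Cd3eap (1.42, adjusted p = 8.74e-07), a subunit of the enzyme, Rrn3 (1.30, adjusted p = 0.00415), which brings the enzyme to the promoter, and Polr1d (0.68, adjusted p = 0.00345), shared with RNA polymerase III, whose other probes did not pass (0.29 and -0.03). The same 3 rose on WT Th2 stimulation, by 1.09, 1.00 and 0.83. Ubtf, which binds the ribosomal DNA promoter, showed 0.14 and 0.12 and passed in neither. Of 9 measured subunits of the RNA exosome, which trims ribosomal RNA precursors, 5 rose on WT Naive stimulation (Exosc1, Exosc2, Exosc4, Exosc7 and Dis3, by 0.47 to 1.91) and 3 on WT Th2 stimulation (Exosc1, Exosc2 and Exosc10, by 0.60 to 1.11).

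Of 4 regulators, Myc rose and Mxd4, a member of the Mxd family that opposes Myc at E-boxes, fell. Myc gave 4.61, 5.18 and 5.10 in resting and 6.22, 6.38 and 6.27 in stimulated Naive WT cells, and 5.53, 6.06 and 4.61 in resting and 7.78, 7.47 and 7.12 in stimulated Th2 WT cells. No arrays overlapped, and the rises were 1.33 (adjusted p = 0.000927) and 2.06 (adjusted p = 1.79e-05). Mxd4 went the other way, from 5.90, 5.71 and 5.77 to 4.40, 4.83 and 4.36 in Naive and from 5.28, 5.48 and 5.38 to 4.75, 4.51 and 4.57 in Th2 WT cells. Its falls were -1.26 (adjusted p = 1.22e-07) and -0.77 (adjusted p = 0.000111), also without overlap. Max, the partner of both, showed -0.30 and -0.14 on its brighter probe, neither past the test, and rises of 0.77 (adjusted p = 0.00115) and 0.52 (adjusted p = 0.031) on the other, so no direction can be given. Mnt showed 0.01 and 0.04 and did not pass.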

How the data were processed

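RNA of the 24 samples was read on Illumina MouseRef-8 arrays. The authors deposited bead summary intensities, not normalized, each with its detection p-value, and the submitters' processing notes name GenomeStudio 1.6.0. No depth exists for arrays, and 3 arrays a group limit the precision.

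In R 4.3.3 with limma 3.58.1, intensities were background-corrected (normexp with the p-values giving the negative controls, offset 16), quantile normalized and put on the log2 scale. A probe was tested when 1 array or more gave it a detection p not above 0.02, which 14246 of 25697 did. Older symbols of 26 members were updated through Entrez identifiers (15), RefSeq accessions (9) or both (2), and each gene was represented by its brightest kept probe. One limma fit over 8 group means served all contrasts. State comparisons were called at an adjusted p below 0.05. Genotype comparisons were called by the cutoffs of the study's 4 criteria, with p and false discovery rate from limma. The scripts were tested on simulated data.

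Same-letter arrays of WT and BAF180-deficient cells deviated together, with r 0.305, 0.137 and 0.518 for A, B and C over all states. Within states r was above 0.1 in all but 2 of 12 pairs. The study describes pairs of mice, and the letters were read as pairs in the replicate blocks and the same-letter differences. Between resting and stimulated Th2 arrays of one genotype, same-letter r was 0.02, 0.38 and 0.37 in WT and 0.36, 0.29 and 0.43 in BAF180-deficient cells. Between the Naive states of WT cells it was -0.01, 0.05 and 0.10. The main fit had no block, so neither its genotype tests nor its state tests used the letters. Members, lists and tests were chosen with earlier results of these data known. Named were all RNA polymerase I members, the largest and smallest differences of each role in WT Naive and of all members in WT Th2 stimulation, members called or nearest to a call between genotypes, members with opposed probes and members without a kept probe. Regulators and other pathway genes were named from fixed lists. Alternatives were other scalings, offsets, filters and probe rules, replicate blocks, fits of single states and leaving out each array.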

Additional observations from a re-analysis of the deposited data

Results flagged for a closer look

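The rise on stimulation differed between WT Naive and WT Th2 cells for 6 members, by the limma test of the difference itself (adjusted p below 0.05, Th2 minus Naive, log2): Nhp2 -1.59, Nop10 -1.32, Gar1 -1.32, Ncl -1.25, Npm3 -0.97 and Polr1a -0.82. The Nop10 and Polr1a values rest on 1 probe each, with the genes' other probes at 0.04, and at -0.03 and 0.46. Nop10, Polr1a and Npm3 also lost their call under another setting, at -0.64 (mean of probes), -0.13 (mean of probes) and -0.33 (Z-score normalization). Of all genes, 14.3% were lower in this contrast, a share like that of the members. Stimulus, duration and cell type changed together in this comparison and cannot be told apart.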

How the results depend on the processing

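Counts of members higher on stimulation stayed within 1.5 times under other scalings, dim-probe filters, offsets, probe rules and blocks and without any 1 array, at 35 to 41 for WT Naive and 37 to 40 for WT Th2 cells. Median scaling moved the median of all genes by over 0.1 (-0.16 on WT Naive stimulation) and the share of higher among called genes from 50.5% to 62.8% there and from 44.1% to 54.9% on WT Th2 stimulation, with 38 and 40 members higher. It gave 28 members in place of 16 between resting Th2 and resting Naive BAF180-deficient cells, and 12 in place of 6 between the WT stimulations (10 lower, 2 higher). With a 2-fold minimum 24 members were called for Th2 stimulation without BAF180, and 9 in WT and 9 in BAF180-deficient cells between the resting states. For the genotype difference over 4 states the count of 2 was 1 with Z-scores, 0 with no filter on dim probes, 0 at an adjusted p below 0.05 alone, and 0 to 2 without each array. With the letter within state as a replicate block 1 member (Twistnb) was called in resting Naive cells. The replicate block (letter) also called Twistnb on WT Th2 stimulation (1.31, adjusted p = 0.00626) and changed no other call on a named gene.

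The called rise of Npm1 on WT Naive stimulation (0.77) turned to -0.13 with Z-scores. The other directions that turned were of differences not called: by median scaling Gar1 in stimulated Th2 (-0.00065), Npm1 over 4 states (0.024) and Twistnb between the resting WT states (0.044). By the mean of probes Nob1 over 4 states was -0.0053. Without each array Twistnb ranged from -0.25 to 0.76 on WT Naive stimulation and from -0.89 to 0.12 between the resting WT states, and Npm1 from -0.055 to 0.20 on WT Th2 stimulation. The cause of these changes was not tested. The fit with the BeadChip as a block was not run, since no chip is given in the sources used here. Members near background, such as Utp15, Rrs1 and Tsr1, give bounds or compressed differences, and 3 arrays a group limit what the genotype tests resolve.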
